A study of Mus musculus with 12 samples.

Results

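The genes described here are 30 subunits of ion channels: the voltage-gated sodium and calcium channels with their auxiliary subunits, the sodium leak channel Nalcn, and the hyperpolarization-activated HCN channels. They were taken as a fixed list of gene symbols, and every array probe set annotated to one of those symbols alone was used. Of the 30 genes, 27 had such a probe set (71 probe sets in all). Of these, 26 exceeded a low-signal threshold and were tested among 12845 genes. The expression of Cacna1i, Cacnb3 and Hcn4 was not analysed here, and Scn4b was too dim to test.

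Voltage-gated sodium channels carry the upstroke of the action potential through a large pore-forming alpha subunit, which smaller beta subunits bring to the membrane and tune. Voltage-gated calcium channels turn depolarization into calcium entry; their alpha1 pore depends on an extracellular alpha2delta subunit and a cytoplasmic beta subunit to reach the surface. Mature serotonin neurons are known for slow, regular firing, in which low-voltage calcium channels and leak conductances take part, and HCN channels open on hyperpolarization and carry a depolarizing current.

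Expression was measured in cells from the embryonic neural tube of mice at stage E12.5, on 12 Affymetrix Mouse 430 2.0 arrays. All 4 groups came from embryos with the genotype ePet-EYFP: yellow fluorescent protein (YFP) is made under an enhancer of Pet-1, a serotonin neuron gene. The neural tube was cut at the pontine flexure, and each piece was dissociated with trypsin and sorted by flow cytometry. The 4 groups were R+ (rostral YFP-positive, labelled serotonin neurons), R- (rostral YFP-negative), C+ (caudal YFP-positive) and C- (caudal YFP-negative), with 3 biological replicates of 200000 cells each. The YFP-negative groups are mixtures of everything else in the tissue, and no label says whether embryos were pooled within a replicate or whether replicates came from separate litters.

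The serotonin markers followed the labels. All 11 serotonin neuron markers rose in both YFP-positive groups (summed signal 83721 to 91372 in R+ against 5003 to 5443 in R-, and 56764 to 62336 in C+ against 2491 to 3542 in C-). Of 10 progenitor markers, 10 fell in R+ and 8 in C+ (summed signal 20019 to 21834 in R+ against 50087 to 62035 in R-, and 21124 to 27184 in C+ against 51153 to 54928 in C-). Of 9 cell cycle genes, 8 fell in R+ and 7 in C+, and all 6 glutamate neuron markers fell in both. Of 5 GABA and glycine neuron markers 5 fell in R+ and 4 in C+, where Gad1 was at -0.17 ± 0.19 (adjusted p = 0.658). All 4 tested red blood cell genes fell in both (summed signal 8708 to 15585 in R+ against 45130 to 59155 in R-, and 4804 to 8716 in C+ against 40507 to 44980 in C-). The summed signal of the mesenchyme list was lower in R+ (228 to 361) than in R- (436 to 680) but higher in C+ (2436 to 2753) than in C- (1193 to 1903). Most of the C+ sum came from Dcn, with 2494, 2178 and 2364 in C+ against 502, 292 and 457 in C-. Of the 3 mesenchyme genes tested, 1 was higher and 1 lower in C+ than in C-, with a median difference of -1.17. The 15 general neuron markers were split, with 3 higher and 3 lower in each domain (summed signal 140051 to 174962 in R+, 118158 to 159618 in R-, 124268 to 162276 in C+ and 135453 to 162925 in C-). The YFP-positive and YFP-negative groups thus differed in progenitor content as well as in neuron type, and the part of cell mixture in each channel difference below was not tested. In such bulk samples fewer cells expressing a gene and less RNA per cell cannot be told apart. The ratio of 3′ to 5′ actin probe sets, a sign of RNA quality, was 2.64 to 4.39 on the rostral arrays and 4.52 to 7.69 on the caudal arrays (exact permutation test within replicate numbers, two-sided p = 0.00926, the smallest that 216 splits allow), so that every rostral to caudal comparison moved with it.

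Of the 5 genes called the same way in both domains, 3 encode calcium channel auxiliary subunits: Cacna2d1 and Cacnb2, higher in YFP-positive cells, and Cacna2d2, lower in them. Cacnb2 exceeded the low-signal threshold only in YFP-positive cells, so its call is no support. The upstream windows of these 3 genes are shown as the DNA next to their start sites. The windows are the 250 bases before an annotated RefSeq start on build GRCm38.p6, at chr5:15934441-15934690 for Cacna2d1, chr9:107399630-107399879 for Cacna2d2, and chr2:14604056-14604305 and chr2:14823842-14824091 for the first and the second start of Cacnb2, each on the plus strand. They are printed 5′ to 3′ in lower case, and capitals mark the GC box letters GGGCGG on either strand.
Cacna2d1, upstream window: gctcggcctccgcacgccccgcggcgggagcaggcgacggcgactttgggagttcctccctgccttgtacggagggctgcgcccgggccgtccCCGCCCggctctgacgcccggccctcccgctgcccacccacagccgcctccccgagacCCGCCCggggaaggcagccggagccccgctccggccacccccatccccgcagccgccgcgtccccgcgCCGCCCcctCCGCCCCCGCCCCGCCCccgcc
Cacna2d2, upstream window: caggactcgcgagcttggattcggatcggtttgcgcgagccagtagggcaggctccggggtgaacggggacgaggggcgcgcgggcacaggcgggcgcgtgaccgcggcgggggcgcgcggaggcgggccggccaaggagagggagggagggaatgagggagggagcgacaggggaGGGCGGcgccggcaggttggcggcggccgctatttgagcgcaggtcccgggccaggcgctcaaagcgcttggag
Cacnb2, window at the first start: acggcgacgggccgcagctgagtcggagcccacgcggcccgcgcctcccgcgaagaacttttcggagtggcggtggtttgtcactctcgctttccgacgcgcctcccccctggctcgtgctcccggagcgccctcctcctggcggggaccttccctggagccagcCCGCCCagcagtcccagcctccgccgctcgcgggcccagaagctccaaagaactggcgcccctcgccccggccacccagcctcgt
Cacnb2, window at the second start: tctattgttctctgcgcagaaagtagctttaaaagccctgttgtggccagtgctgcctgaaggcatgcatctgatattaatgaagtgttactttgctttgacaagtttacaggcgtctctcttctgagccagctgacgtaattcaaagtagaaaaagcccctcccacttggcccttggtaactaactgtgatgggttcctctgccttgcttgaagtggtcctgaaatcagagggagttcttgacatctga
GC content was 82.4% for Cacna2d1, 74.4% for Cacna2d2, and 73.2% and 46% for the first and the second window of Cacnb2, against a median of 52.4% over all 32851 windows of this length. The Cacna2d1 window held 36 CpG and 6 GC boxes, the Cacna2d2 window 34 CpG and 1 GC box, and the first Cacnb2 window 30 CpG and 1 GC box, while the second Cacnb2 window held 3 CpG and no GC box. The median over all windows was 6 CpG. Over the 34 windows of the 23 listed genes in the table, 13 held a GC box, against 32.7% of all windows, and 2 (of Cacna1d and Scn2a) held TATAAA, against 12.4%. AGATAA, a core bound by GATA factors, was in none of the 34 and in 9.99% of all windows, and TTCAGCACC, the left part of the site of the neuronal gene repressor REST, was in none of the 34 and in 0.301% of all. Scn3b was not in this table.

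Signals below are the deposited MAS5 values of the brightest usable probe set of each gene, an intensity on a linear scale, with means ± SD over n = 3 arrays. They are not comparable between genes, since each probe set has its own response. Differences are the first-named group minus the second on the log2(signal + 10) scale ± SE. A gene was called when its adjusted p from limma, corrected by the Benjamini-Hochberg method over all 12845 genes, was under 0.05.

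Between R+ and R-, 6 of the 26 tested channel genes were higher and 1 was lower (26.9% called, against 12.2% of all genes; 4.34% of all genes were higher and 7.86% lower). Between C+ and C-, 7 were higher and 2 lower (34.6% called, against 13.1% of all genes; 5.71% higher and 7.39% lower). Cacna1b, Cacna2d1, Cacnb2 and Scn3b were higher and Cacna2d2 was lower in both domains. Of these, Cacnb2 entered the test only through the groups where it was high, so it had to differ. The median difference over the 26 was 0.41 (R+ minus R-) and 0.33 (C+ minus C-), against -0.01 and -0.04 over all genes, and 23 and 18 of the 26 were positive, against 48.3% and 45.9% of all genes. Without the signal threshold the medians of the 27 genes were 0.38 and 0.30. With replicate number as a block, which pairs the arrays, 10 were higher and 1 lower in the rostral domain (20.9% of all genes called, 8.59% higher and 12.3% lower) and 9 higher and 2 lower in the caudal domain (22.8% of all genes called, 10.5% higher and 12.3% lower). The ranges of the 3 arrays lay wholly higher in R+ than in R- for 12 genes and wholly lower for 1, against 12.1% and 16.4% of all genes. They lay wholly higher in C+ than in C- for 10 and wholly lower for 3, against 12.3% and 15.1%.

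**Figure D1:**
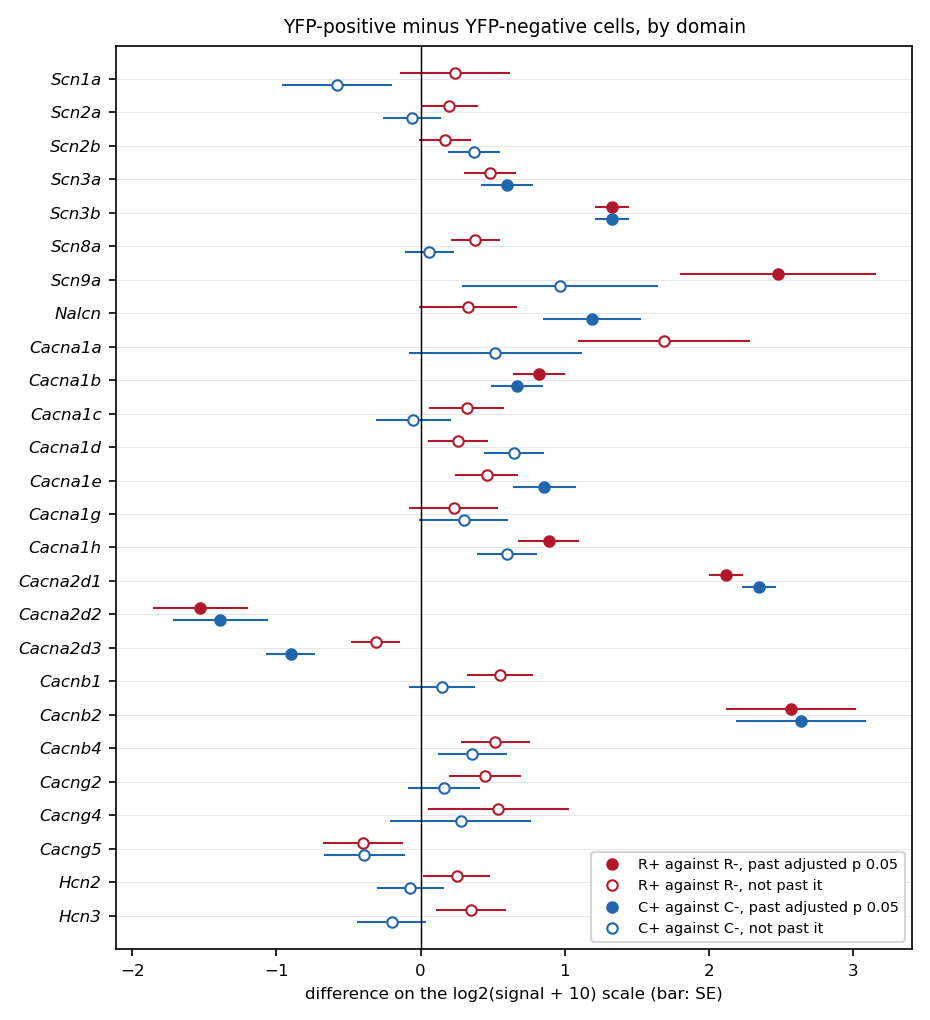
Difference between YFP-positive and YFP-negative cells of the 26 tested channel genes on the log2(signal + 10) scale, rostral (R+ minus R-, red, upper point) and caudal (C+ minus C-, blue, lower point). Bars are SE and filled points passed an adjusted p of 0.05; Cacnb2 and Cacna2d1 lie beyond 2 on the right in both domains, and Cacna2d2 lies furthest to the left.

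The alpha2delta subunits, which are extracellular and help calcium channels reach the membrane and release sites, moved in opposite directions. Cacna2d1, an alpha2delta subunit bound by gabapentin, had signals of 6156, 6747 and 5707 in R+ against 1304, 1635 and 1333 in R-. In C+ it had 7503, 7437 and 7582, against 1489, 1512 and 1391 in C-. Every YFP-positive array lay far above every YFP-negative one, and the YFP-negative groups of the domains were alike at 1424 ± 183 in R- and 1464 ± 64.3 in C-.

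Cacna2d1 was higher by 2.12 ± 0.12 in R+ (4.35-fold, adjusted p = 3.52e-08) and by 2.35 ± 0.12 in C+ (5.1-fold, adjusted p = 6.48e-09). Another probe set of the same gene gave 1.59 ± 0.26 in R+ (adjusted p = 0.0012) and 1.55 ± 0.26 in C+ (adjusted p = 0.00138) when all probe sets were fitted, so both were past the threshold with the same sign. The remaining one gave 2.28 ± 0.92 in R+ (adjusted p = 0.18) and 1.74 ± 0.92 in C+ (adjusted p = 0.319), past the threshold only with the replicate block (adjusted p = 0.00608 and 0.0275). The call held in all 26 alternatives in each domain.

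Cacna2d2, a second alpha2delta subunit, whose loss in mice causes ataxia and seizures, went the other way. Its signals were 858, 616 and 468 in R+ against 2870, 1681 and 1286 in R-. They were 727, 587 and 428 in C+ against 2233, 1002 and 1511 in C-. The groups did not overlap in either domain, and replicate 1 was the highest array in each of the 4 groups.

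Cacna2d2 fell by 1.53 ± 0.33 in R+ (2.9-fold, adjusted p = 0.00534) and by 1.39 ± 0.33 in C+ (2.62-fold, adjusted p = 0.00986). Leaving out C- replicate 1, the highest C- array, gave -1.10 ± 0.33 in the caudal domain at an adjusted p of 0.0501 (5.41e-06 to 0.134 over 26 alternatives). Only this one probe set of Cacna2d2 passed the signal threshold.

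Cacna2d3, the remaining alpha2delta member of the list, fell in the caudal domain. It had 1027, 861 and 1110 in C+ against 1850, 1951 and 1780 in C-, a separation of all arrays and a difference of -0.90 ± 0.17 (adjusted p = 0.00252). In the rostral domain it had 957, 989 and 873 in R+ against 881, 1455 and 1227 in R-, where the groups overlapped. The rostral difference was -0.31 ± 0.17 (95% interval -0.68 to 0.07, adjusted p = 0.329). The difference between the domains was 0.59 ± 0.25, with an unadjusted p of 0.0305 and an adjusted p of 0.583, so the fall in C+ was not shown to be larger than the value in R+.

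**Figure D2:**
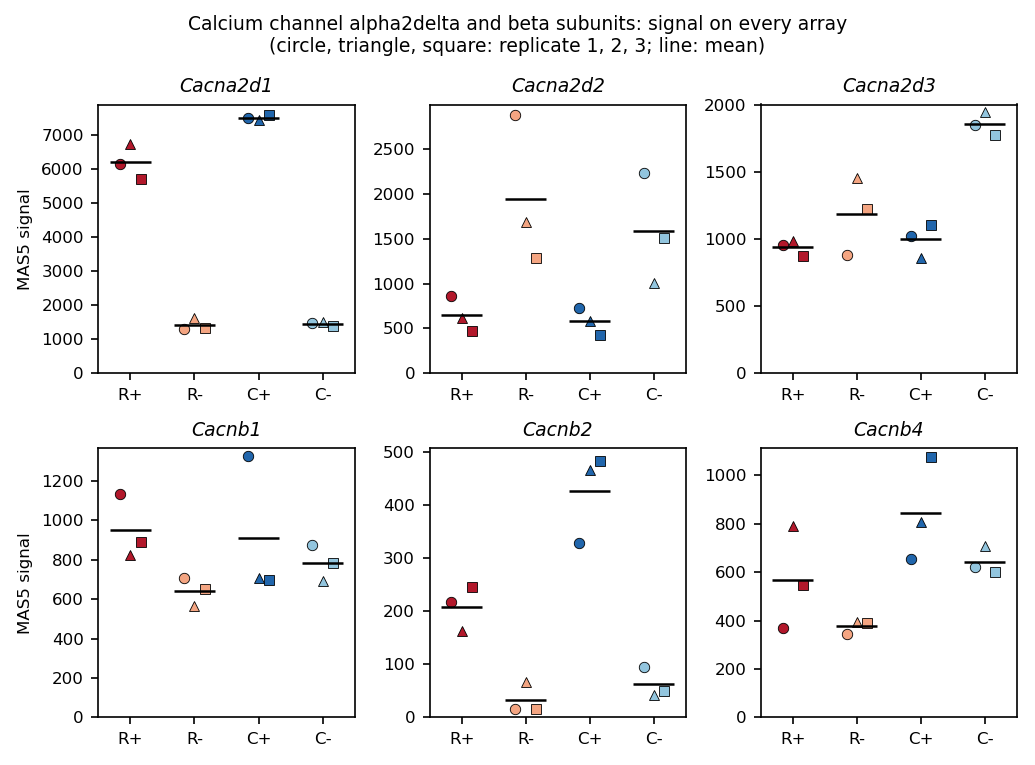
MAS5 signal of 3 alpha2delta and 3 beta subunit genes of calcium channels on each of the 12 arrays, by group, with circles, triangles and squares for replicates 1, 2 and 3 and a line at the mean. Cacna2d1 and Cacnb2 are high in R+ and C+, Cacna2d2 is high in R- and C-, and Cacna2d3 stands highest in C- (1780 to 1951).

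The beta subunits bind the inner side of the pore and control its traffic and gating. Cacnb2, known as the main beta subunit of heart muscle and also present in brain, had 218, 162 and 246 in R+ against 15, 67 and 15 in R-. In C+ it had 329, 466 and 483, against 95, 42 and 50 in C-. All YFP-positive arrays were above the filter threshold of 107 and all YFP-negative arrays were below it. Cacnb2 thus entered the test only through the groups where it was high and had to differ, and the size of its difference, taken against dim values, is uncertain.

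The fitted difference of Cacnb2 was 2.57 ± 0.45 in R+ (adjusted p = 0.00123) and 2.64 ± 0.45 in C+ (adjusted p = 0.000899). With offsets of 1 and 50 in place of 10 and the other alternatives, the rostral value lay between 1.70 and 3.27 and the caudal value between 2.10 and 3.12. The caudal call held in all 26 alternatives, and the rostral call in 25, the exception being the fit without replicate 3 in any group (adjusted p = 0.0743; 0.000184 to 0.0743 over the alternatives).

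Cacnb1, the beta subunit of skeletal muscle that neurons also make, had 1132, 826 and 892 in R+ against 709, 565 and 649 in R-, and 1326, 708 and 697 in C+ against 875, 691 and 783 in C-. Its rostral arrays did not overlap and its caudal arrays did. The rostral difference of 0.55 ± 0.23 was not past the threshold (adjusted p = 0.146) but was with the replicate block (adjusted p = 0.0151; 0.0151 to 0.451 over the alternatives), and the caudal one was 0.15 ± 0.23. Cacnb4, which is mutated in the epileptic lethargic mouse, had 369, 790 and 548 in R+ against 344, 396 and 390 in R-, and 655, 806 and 1075 in C+ against 623, 707 and 602 in C-. These overlapped in both domains, with differences of 0.52 ± 0.24 and 0.36 ± 0.24 (adjusted p = 0.214 and 0.409).

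Among the pore-forming subunits of high-voltage calcium channels, Cacna1b was higher in both domains and Cacna1e in the caudal domain. Cacna1b forms the N-type channel, which triggers transmitter release at many synapses. It had 861, 811 and 603 in R+ against 492, 439 and 344 in R-, and 1020, 1176 and 1162 in C+ against 657, 739 and 698 in C-. The groups were apart in both domains, while R+ overlapped C-.

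Cacna1b was higher by 0.82 ± 0.18 in R+ (1.76-fold, adjusted p = 0.00575) and by 0.67 ± 0.18 in C+ (1.59-fold, adjusted p = 0.0191). The rostral call was lost with the mean of probe sets (0.64, adjusted p = 0.203). It was also lost without replicate 2 (0.124) or replicate 3 (0.0581) in all groups, with adjusted p from 0.00106 to 0.203 over 26 alternatives. The caudal call was lost without C+ replicate 2 (adjusted p = 0.0767), C+ replicate 3 (0.0622), C- replicate 1 (0.0682) or C- replicate 3 (0.0597), with values of 0.63 to 0.67 and adjusted p from 0.00439 to 0.295 over 26 alternatives. Its 3 other probe sets gave 0.54 to 0.67 in R+ and 0.13 to 0.73 in C+. None of them passed without the block, and with it 2 of the 3 passed in both domains (adjusted p = 0.0495 and 0.0472 in R+, and 0.0269 and 0.0279 in C+).

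Cacna1e, the R-type pore, had 404, 523 and 444 in C+ against 284, 241 and 215 in C-, with no overlap, and was higher by 0.86 ± 0.22 (adjusted p = 0.0181). That call was lost without C+ replicate 2 (0.77, adjusted p = 0.0884), C- replicate 2 (0.85, adjusted p = 0.0502) or C- replicate 3 (0.77, adjusted p = 0.0784), and the adjusted p lay between 0.0079 and 0.216 over the alternatives. In the rostral domain Cacna1e had 361, 261 and 335 in R+ against 215, 301 and 181 in R-, which overlapped (0.46 ± 0.22, adjusted p = 0.242).

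Cacna1d, an L-type pore that opens at fairly negative voltages, had 413, 619 and 565 in C+ against 305, 317 and 374 in C-, and 226, 253 and 208 in R+ against 174, 222 and 173 in R-. The caudal groups were apart and the rostral groups overlapped. The caudal difference of 0.65 ± 0.21 had an adjusted p of 0.0525, and 0.0182 with the replicate block (0.0176 to 0.39 over the alternatives), and the rostral one was 0.26 ± 0.21 (adjusted p = 0.527). Cacna1a, the P/Q-type pore, ranged over 190 to 368 in R+, 23 to 158 in R-, 109 to 459 in C+ and 90 to 240 in C-. Its rostral difference of 1.69 ± 0.60 had an adjusted p of 0.0882, and 0.0135 with the block (0.0135 to 0.341 over the alternatives). Cacna1c, the other L-type pore of the list, ranged over 158 to 187 in R+, 112 to 160 in R-, 132 to 206 in C+ and 151 to 192 in C-, and its differences were 0.32 ± 0.26 (R+ minus R-) and -0.05 ± 0.26 (C+ minus C-).

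The T-type pores open near rest and support rhythmic and burst firing. Cacna1h had 1398, 1052 and 1049 in R+ against 723, 667 and 490 in R-, and 1892, 1310 and 1166 in C+ against 1151, 822 and 870 in C-. Both pairs of groups were apart, although C+ replicate 3 lay only just above C- replicate 1, and replicate 1 was highest in all 4 groups.

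Cacna1h was higher by 0.89 ± 0.21 in R+ (1.85-fold, adjusted p = 0.0118), a call lost without R+ replicate 1 (0.76, adjusted p = 0.0615) or R- replicate 3 (0.73, adjusted p = 0.0723; 7.71e-05 to 0.156 over the alternatives). In C+ the difference was 0.60 ± 0.21 with an adjusted p of 0.0859, and 0.00269 with the replicate block (0.00246 to 0.378 over the alternatives). Cacna1g, the other tested T-type pore, had 443, 408 and 173 in R+ against 258, 366 and 202 in R-, and 763, 833 and 820 in C+ against 506, 816 and 674 in C-. It overlapped within each domain (0.23 ± 0.31 and 0.30 ± 0.31, adjusted p = 0.753 and 0.627), while the caudal arrays lay above the rostral ones.

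**Figure D3:**
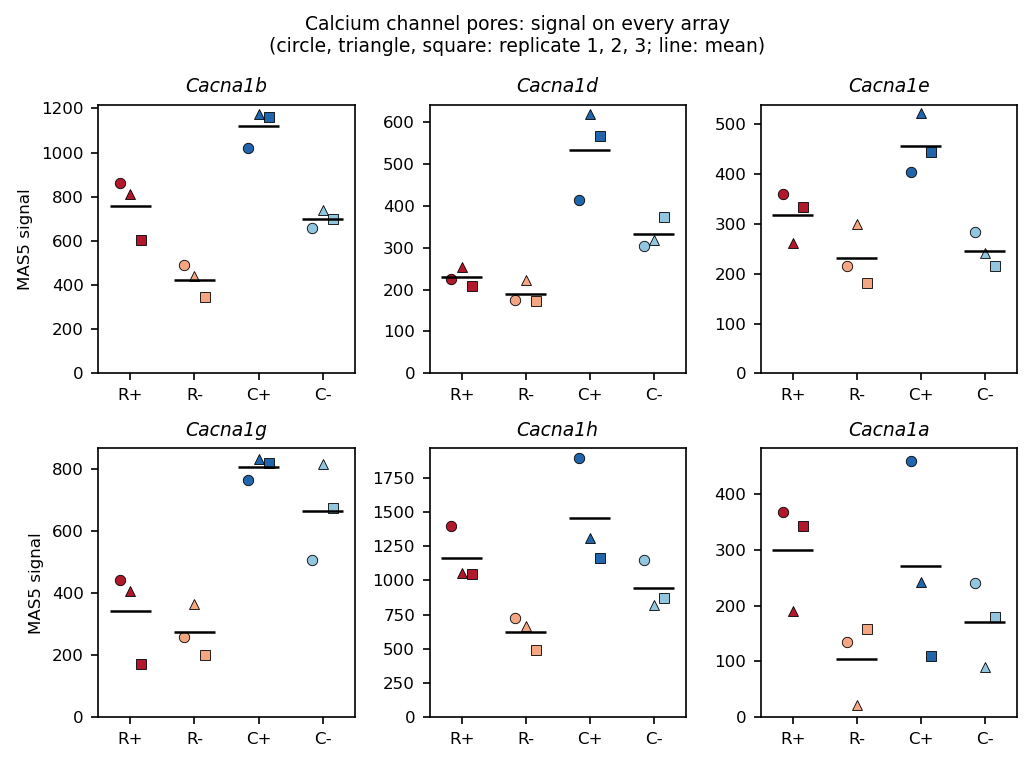
MAS5 signal of 6 calcium channel pore genes on each of the 12 arrays, by group, with circles, triangles and squares for replicates 1, 2 and 3 and a line at the mean. Cacna1b and Cacna1h separate YFP-positive from YFP-negative arrays within each domain, and Cacna1g and Cacna1d are lower in R+ than in C+ (341.3 against 805.3 and 229 against 532.3 on average).

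Of the sodium channel subunits, the beta subunit Scn3b had the clearest difference. Scn3b encodes beta3, a single-pass protein that modifies gating and surface level of the alpha subunits and is prominent in embryonic brain. Its signals were 5924, 5136 and 5414 in R+ against 2285, 2233 and 2015 in R-, and 6505, 6375 and 6634 in C+ against 2385, 2502 and 2889 in C-. All YFP-positive arrays lay above all YFP-negative arrays, with no value between 2889 and 5136.

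Scn3b was higher by 1.33 ± 0.12 in R+ (2.51-fold, adjusted p = 1.81e-06) and by 1.33 ± 0.12 in C+ (2.51-fold, adjusted p = 1.63e-06), and both calls held in all 26 alternatives. The difference between the domains was 0.00 (95% interval -0.35 to 0.36). Scn2b, which encodes a beta subunit that is linked to the alpha subunit by a disulfide bond, ranged over 358 to 432 in R+, 340 to 349 in R-, 349 to 441 in C+ and 268 to 326 in C-, and did not pass (0.17 ± 0.18 and 0.37 ± 0.18, adjusted p = 0.653 and 0.208). Scn4b, the beta subunit tied to resurgent current, averaged 40.67 ± 15.3 in R+ against 30 ± 13.1 in R-, and 49 ± 15.6 in C+ against 83 ± 58.9 in C-, with 1 of 12 arrays above the threshold.

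Among the alpha subunits, Scn3a, known as the embryonic brain sodium channel Nav1.3, was higher in C+. It had 2604, 2852 and 2468 in C+ against 1856, 1936 and 1456 in C-, without overlap, and 2057, 2338 and 1713 in R+ against 1560, 1754 and 1113 in R-, where R+ replicate 3 lay below R- replicate 2. Replicate 2 was highest and replicate 3 lowest in every group.

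The caudal difference of Scn3a was 0.60 ± 0.18 (1.52-fold, adjusted p = 0.0396). It was no longer past the threshold without C+ replicate 1 (adjusted p = 0.0581), C+ replicate 2 (0.145), C+ replicate 3 (0.0642), C- replicate 1 (0.0641) or C- replicate 3 (0.179), at values of 0.47 to 0.65 (adjusted p 0.000688 to 0.194 over the alternatives). The rostral difference was 0.48 ± 0.18 (adjusted p = 0.113), and it passed with the replicate block (adjusted p = 0.00439; 0.00335 to 0.44 over the alternatives).

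Scn9a encodes Nav1.7, known from sensory and sympathetic neurons. It had 67, 374 and 297 in R+ against 4, 55 and 47 in R-, and 108, 350 and 153 in C+ against 62, 128 and 82 in C-. The rostral groups were apart, the caudal groups overlapped, and replicate 2 was highest in every group. All R- arrays were below the filter threshold, so the size of the rostral difference is uncertain too.

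Scn9a was higher by 2.48 ± 0.68 in R+ (adjusted p = 0.0254), while the difference in C+ was 0.97 ± 0.68 and did not pass (adjusted p = 0.43). The rostral call was lost without R+ replicate 2 (2.04, adjusted p = 0.132), R+ replicate 3 (2.21, adjusted p = 0.106) or R- replicate 1 (1.78, adjusted p = 0.1), and the adjusted p lay between 0.000399 and 0.216 over the alternatives. A brighter probe set of Scn9a of a type open to cross-hybridization had 158, 430 and 277 in R+ against 19, 137 and 164 in R-, and 484, 714 and 850 in C+ against 68, 152 and 183 in C-. When all probe sets were fitted, its caudal groups were apart (2.33 ± 0.59, adjusted p = 0.0245) and the rostral ones overlapped (1.61 ± 0.59, adjusted p = 0.134), so the probe sets differed in which domain passed and had the same sign in both. With the replicate block this probe set passed in both domains (adjusted p = 0.00333 and 0.000162).

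The other alpha subunits did not pass between YFP-positive and YFP-negative cells. Scn2a, or Nav1.2, had 391, 406 and 347 in R+ against 398, 366 and 246 in R-, and 560, 588 and 606 in C+ against 685, 660 and 498 in C-. Scn8a, or Nav1.6, the main channel of mature axon initial segments, had 542, 489 and 470 in R+ against 344, 411 and 396 in R-, and 886, 649 and 799 in C+ against 878, 671 and 681 in C-. Scn2a overlapped in both domains, whereas Scn8a overlapped in the caudal domain and was apart in the rostral one at 0.38 ± 0.17 (adjusted p = 0.202). Scn1a, or Nav1.1, was dim and passed the filter only through its 3 C- arrays, at 49 to 74 in R+, 40 to 74 in R-, 87 to 104 in C+ and 139 to 151 in C-, and its differences were 0.24 ± 0.38 (R+ minus R-) and -0.58 ± 0.38 (C+ minus C-). Scn3a, Scn2a, Scn1a and Scn9a lie close together in this order on chromosome 2 (RefSeq), followed by Scn7a, which was higher in R+ than in R- (2.03 ± 0.61, adjusted p = 0.0413). All R- arrays of Scn7a were below the filter threshold, so the size of that difference is uncertain.

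Nalcn, the leak channel that passes sodium at rest and sets excitability, was higher in C+. It had 354, 614 and 567 in C+ against 121, 315 and 250 in C-, without overlap, and 310, 524 and 417 in R+ against 229, 430 and 342 in R-, with overlap. The caudal difference was 1.19 ± 0.34 (2.28-fold, adjusted p = 0.03) and the rostral one 0.33 ± 0.34 (adjusted p = 0.66), and the difference between them did not pass (-0.86 ± 0.48, adjusted p = 0.812). The caudal call was lost without C+ replicate 2 (1.04, adjusted p = 0.125), C+ replicate 3 (1.10, adjusted p = 0.0978), C- replicate 1 (0.81, adjusted p = 0.133) or C- replicate 3 (1.30, adjusted p = 0.0528), and the adjusted p lay between 9.41e-05 and 0.254 over the alternatives. A second probe set of Nalcn gave 0.34 ± 0.36 in C+.

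**Figure D4:**
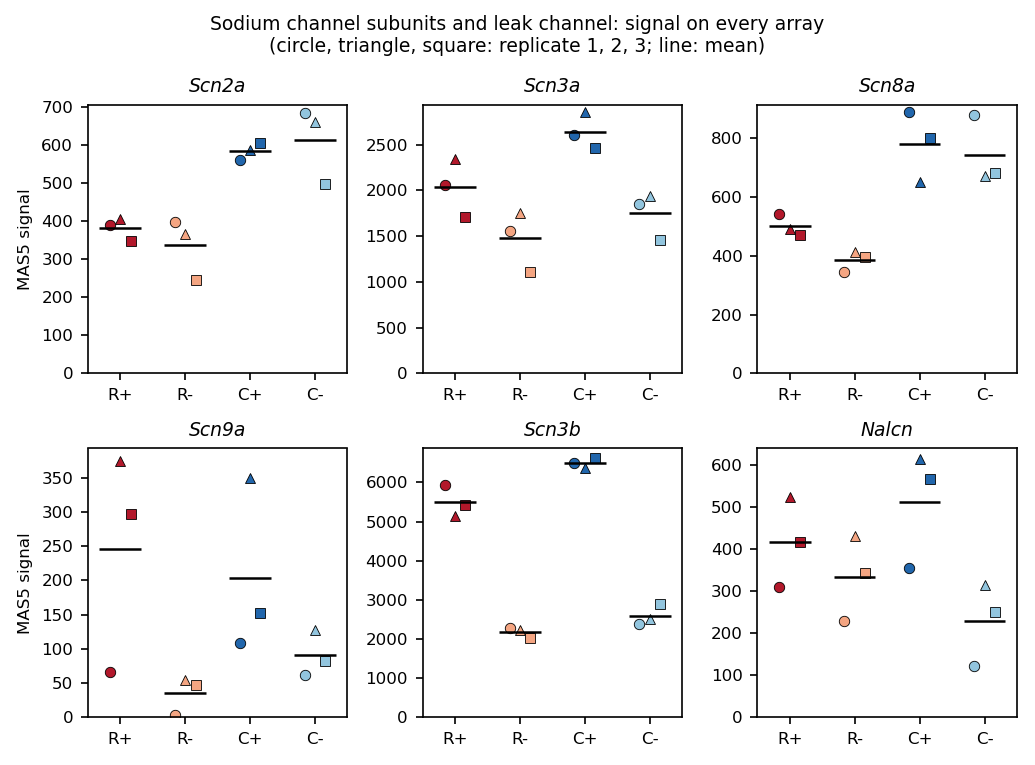
MAS5 signal of 5 sodium channel subunit genes and the leak channel gene Nalcn on each of the 12 arrays, by group, with circles, triangles and squares for replicates 1, 2 and 3 and a line at the mean. Scn3b separates YFP-positive from YFP-negative arrays in both domains, Scn2a and Scn8a are lower in the rostral groups, and Scn9a spreads widely within R+ (67 to 374) and C+ (108 to 350).

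The gamma family genes and HCN genes passed in no comparison without the replicate block. Cacng2 (stargazin) and Cacng4 belong to the proteins that escort AMPA receptors to synapses. Cacng2 had 1171, 860 and 921 in R+ against 795, 697 and 652 in R-, and 1453, 906 and 662 in C+ against 1102, 713 and 791 in C-. Cacng4 had 4561, 2294 and 2117 in R+ against 3350, 1382 and 1549 in R-, and 3703, 1346 and 1323 in C+ against 3197, 832 and 1368 in C-. For both genes replicate 1 was the highest array of all 4 groups, and for Cacng4 the SD within a group was 1090 to 1370, against group means of 1799 to 2991.

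With the replicate block, Cacng4 was higher in R+ by 0.54 ± 0.15 (adjusted p = 0.0195, against 0.606 without the block; 0.00905 to 0.896 over the alternatives). Cacng5, a further family member, ranged over 129 to 170 in R+, 166 to 238 in R-, 107 to 167 in C+ and 154 to 207 in C- (-0.40 ± 0.28 and -0.39 ± 0.28). Hcn2, the HCN subunit widespread in brain, ranged over 209 to 238 in R+, 157 to 204 in R-, 156 to 256 in C+ and 202 to 225 in C-. Hcn3 had 441, 878 and 651 in R+ against 456, 489 and 535 in R-, and 649, 634 and 386 in C+ against 622, 595 and 656 in C-. Its differences were 0.35 ± 0.24 in the rostral domain (95% interval -0.16 to 0.87) and -0.20 ± 0.24 in the caudal domain (-0.71 to 0.31), and for Hcn2 they were 0.25 ± 0.23 and -0.07 ± 0.23.

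Between the rostral and caudal serotonin neurons, 3 channel genes were lower in R+ than in C+ and 0 were higher by limma (11.5% called, against 7.32% of all genes; 4.48% of all genes were lower and 2.83% higher). At an unadjusted p under 0.05, 9 were lower and 0 higher. The share of all genes at that level was not counted, so this count and those like it below have no baseline. The ranges of 11 of the 26 lay wholly lower in R+ and of 0 wholly higher, against 15.9% and 10.1% of all genes. In the YFP-negative cells 4 were lower in R- than in C- and 0 higher (15.4% called, against 2.83% of all genes; 1.78% lower and 1.05% higher), with 9 lower and 0 higher at an unadjusted p under 0.05. There 12 ranges lay wholly lower and 1 wholly higher, against 10.8% and 8.39% of all genes. Cacna1g and Scn8a were lower in the rostral domain in both sorts. The median difference was -0.26 for R+ against C+ and -0.31 for R- against C-, against -0.05 and -0.04 over all genes. Markers of other cell types differed between the domains too. In R+ against C+ Gad1 (-3.47 ± 0.19, adjusted p = 6.72e-08), Slc6a5 (-2.02 ± 0.33, adjusted p = 0.00164) and Slc32a1 (-1.01 ± 0.22, adjusted p = 0.0121) of the 5 GABA and glycine neuron markers were lower, with a summed signal of 1013 to 1203 in R+ against 3229 to 3828 in C+. The mesenchyme sum was 228 to 361 in R+ against 2436 to 2753 in C+, where most of it came from Dcn. Of the 3 mesenchyme genes tested, 1 was called lower in R+ and 0 higher. In YFP-negative cells the GABA and glycine sum was 7339 to 9927 in R- against 10939 to 13130 in C-. The part of these cell types in the channel differences was not tested.

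The largest rostral to caudal difference that passed was that of Cacna1g, whose signals are given above. It averaged 341.3 ± 147 in R+ against 805.3 ± 37.2 in C+, and 275.3 ± 83.4 in R- against 665.3 ± 155 in C-, with no overlap in either sort. The difference was -1.32 ± 0.31 in YFP-positive cells (adjusted p = 0.019) and -1.26 ± 0.31 in YFP-negative cells (adjusted p = 0.0417). The call in YFP-positive cells was lost without R+ replicate 3, the lowest array (-0.90, adjusted p = 0.0761), C+ replicate 2 (-1.30, adjusted p = 0.074) or C+ replicate 3 (-1.31, adjusted p = 0.0683; 0.0021 to 0.564 over the alternatives). That in YFP-negative cells was lost without R- replicate 1 (adjusted p = 0.13), R- replicate 3 (0.205), C- replicate 2 (0.166), C- replicate 3 (0.14), C+ replicate 2 (0.0643) or C+ replicate 3 (0.055), at values of -1.26 to -1.06 (adjusted p 0.00525 to 0.506 over the alternatives).

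Cacna1d averaged 229 ± 22.6 in R+ against 532.3 ± 107 in C+, a difference of -1.17 ± 0.21 (2.24-fold, adjusted p = 0.00328), and 189.7 ± 28 in R- against 332 ± 36.9 in C- (-0.78 ± 0.21, adjusted p = 0.0615, and 0.0147 with the replicate block; 0.0147 to 0.769 over the alternatives). The groups did not overlap in either sort, and the call in YFP-positive cells held on leaving out any 1 array. A second, dimmer probe set of Cacna1d gave 0.07 ± 0.41 between R+ and C+, and with the mean of the probe sets the difference was -0.55 (adjusted p = 0.232; 0.000578 to 0.522 over the alternatives).

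Scn8a averaged 500.3 ± 37.3 in R+ against 778 ± 120 in C+, and 383.7 ± 35.2 in R- against 743.3 ± 117 in C-, with all rostral arrays below all caudal ones. The difference was -0.62 ± 0.17 in YFP-positive cells (adjusted p = 0.0429) and -0.93 ± 0.17 in YFP-negative cells (1.9-fold, adjusted p = 0.00686). In YFP-positive cells the call was lost without R+ replicate 1 (adjusted p = 0.0765), R+ replicate 2 (0.0892), R+ replicate 3 (0.149), R- replicate 3 (0.0606), C+ replicate 1 (0.0806), C+ replicate 2 (0.0519), C+ replicate 3 (0.147) or C- replicate 3 (0.0587), at values of -0.74 to -0.52 (adjusted p 0.0103 to 0.609 over the alternatives). In YFP-negative cells it held on leaving out any 1 array. It was lost with median scaling (adjusted p = 0.0978), the mean of probe sets (0.186) and the block with actin ratio (0.244). Leaving out replicate 1, 2 or 3 in all groups also lost it (0.052, 0.0821 and 0.201), with a range of 0.00137 to 0.244 over the alternatives. The 3 other probe sets of Scn8a gave -1.09, -0.84 and -0.28 between R+ and C+, and -1.40, -0.32 and -0.61 between R- and C-. None of them passed in either comparison.

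In YFP-negative cells Scn2a averaged 336.7 ± 80.1 in R- against 614.3 ± 102 in C-, with a difference of -0.86 ± 0.20 (adjusted p = 0.0276). The call was lost without R- replicate 3 (-0.66, adjusted p = 0.153), C- replicate 1 (-0.78, adjusted p = 0.114) or C- replicate 2 (-0.81, adjusted p = 0.11; 0.0035 to 0.75 over the alternatives), and the dimmer probe set of Scn2a gave 0.13 ± 0.69. Cacna1b averaged 425 ± 75 in R- against 698 ± 41 in C- (-0.72 ± 0.18, adjusted p = 0.0421). Its call was lost on leaving out any of 8 arrays, R+ replicate 2 (adjusted p = 0.0563), R- replicate 2 (0.0697), R- replicate 3 (0.22), C+ replicate 2 (0.0673), C+ replicate 3 (0.0561), C- replicate 1 (0.0835), C- replicate 2 (0.138) and C- replicate 3 (0.132), at values of -0.76 to -0.57 (adjusted p 0.0077 to 0.71 over the alternatives). Between R+ and C+ the differences of Scn2a and Cacna1b were -0.61 and -0.57 and did not pass (adjusted p = 0.0782 and 0.0643).

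**Figure D5:**
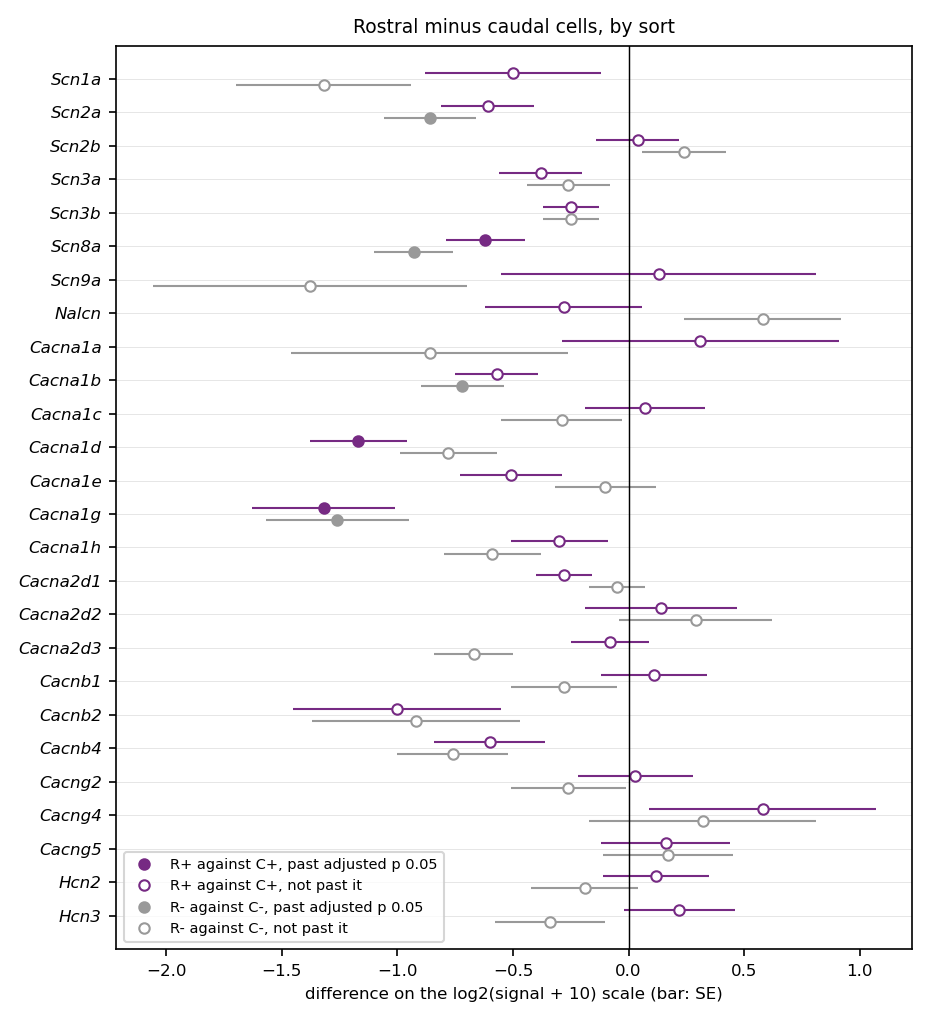
Difference between rostral and caudal cells of the 26 tested channel genes on the log2(signal + 10) scale, in YFP-positive cells (R+ minus C+, purple, upper point) and YFP-negative cells (R- minus C-, grey, lower point). Bars are SE and filled points passed an adjusted p of 0.05; all filled points, of Cacna1g, Cacna1d, Scn8a, Scn2a and Cacna1b, lie left of 0.

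The pairing by replicate number changed these counts the most. With the block 8 channel genes were lower and 1 higher in R+ against C+ (21.8% of all genes called, 12.3% lower and 9.44% higher), and 10 were lower and 1 higher in R- against C- (10.2% of all genes called, 5.74% lower and 4.46% higher). The genes added in YFP-positive cells were Scn2a, Scn3a, Cacna1b, Cacna2d1 and Cacnb4 on the lower side and Cacng4 on the higher side, with blocked adjusted p between 0.0143 and 0.0495. Their other probe sets did not all follow: that of Cacng4 gave -0.03 ± 0.18 (0.912 with the block), those of Cacna2d1 gave 0.19 ± 0.26 and 0.70 ± 0.92, that of Scn2a gave 0.82 ± 0.69, 1 of the 3 of Cacna1b gave 0.36 ± 0.54, and those of Cacnb4 gave -0.23 ± 0.28 and -0.22 ± 0.40. Those added in YFP-negative cells were Scn1a, Scn9a, Cacna1d, Cacna1h, Cacna2d3 and Cacnb4 on the lower side and Nalcn on the higher side, with blocked adjusted p between 0.00796 and 0.0444. Their other usable probe sets had the same sign, but none passed, with or without the block. Cacna1d gave -0.01 ± 0.41, Cacnb4 -0.12 ± 0.28 and -0.11 ± 0.40, Nalcn 0.40 ± 0.36 and Scn9a -0.57 ± 0.59. The Scn9a means of 35.33 in R- and 90.67 in C- were both below the filter threshold of 107, so the size of its difference is uncertain. Scn1a entered the test only through C-, the group where it was high, and had to differ, so its call is no support. When the actin ratio of each array was added to the block, 0 channel genes passed limma's threshold in either comparison, and 126 and 113 of all genes did. At an unadjusted p under 0.05, where no share of all genes was counted, this fit left 2 higher and 0 lower in R+ against C+. In R- against C- it left 2 higher and 5 lower. Domain and this sign of RNA quality cannot be told apart, since the ratios of the domains do not overlap. The same term left the counts within the domains at 11 and 11.

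Whether a channel gene differed between YFP-positive and YFP-negative cells by another amount in the rostral than in the caudal domain was tested directly, and 0 of 26 passed by limma with or without the block (1.17% of all genes did, and 2.65% with the block). At an unadjusted p under 0.05 there was 1, Cacna2d3, given above, and with the block there were 3, again without a share of all genes. The other adjusted p values lay up to 0.999, and the widest 95% intervals, of Scn9a (-0.55 to 3.57) and Cacna1a (-0.64 to 2.97), leave room for sizeable differences.

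Of the 23 differences called, members with further usable probe sets gave 23 comparison values on those probe sets. Of these values 20 had the same sign, 2 passed the threshold with it (both of Cacna2d1), or 9 with the replicate block, and 0 passed with the opposite sign.

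Genes outside the list were counted for comparison. Of 15 other sodium, calcium and HCN channel subunits, 5 were bright enough to test, and 2 were higher in R+ than in R-: Scn7a, an atypical sodium channel that senses sodium levels (2.03 ± 0.61, adjusted p = 0.0413), and Cacng8, an AMPA receptor escort (0.59 ± 0.18, adjusted p = 0.047). Cacng8 was also higher in C+ than in C- (0.98 ± 0.18, adjusted p = 0.00173). Cacng7, another escort of AMPA receptors, passed only with the replicate block, at 0.85 in R+ against R- (adjusted p = 0.028, against 0.238 without the block), -0.78 in C+ against C- (0.0385, against 0.27), 1.31 in R+ against C+ (0.00253, against 0.0675) and 1.63 for the difference between domains (0.0235, against 0.393). Of 28 channel partners and scaffolds, 19 were tested, and 6 were higher in R+ than in R- and 0 lower, against 4.34% and 7.86% of all genes. At an unadjusted p under 0.05, where no share of all genes was counted, 7 were higher and 0 lower. Between C+ and C- 4 of the 19 were higher and 1 was lower, against 5.71% and 7.39% of all genes.

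The largest difference among the partners was that of Rimbp2, which ties presynaptic calcium channels to the release machinery, at 2.60 ± 0.17 in R+ (adjusted p = 8.87e-08) and 1.75 ± 0.17 in C+ (adjusted p = 4.06e-06). The difference between the domains was 0.86 ± 0.24 and passed only with the replicate block (adjusted p = 0.0117, against 0.152 without it). Rims2, a release-site protein that binds calcium channels, was higher in R+ (0.81 ± 0.18, adjusted p = 0.00575). In C+ its difference of 0.42 ± 0.18 passed only with the replicate block (adjusted p = 0.0476, against 0.147 without it). Fgf13, an intracellular factor that binds sodium channels, was higher by 0.74 ± 0.15 in both domains (adjusted p = 0.00326 in R+ and 0.00328 in C+), and lower in the rostral domain in both sorts (-0.72 ± 0.15 and -0.73 ± 0.15, adjusted p = 0.00941 and 0.0139). Fgf12, of the same family, was higher in R+ than in R- (1.54 ± 0.35, adjusted p = 0.00834) and not in C+ than in C- (-0.19 ± 0.35, adjusted p = 0.805), and the difference between the domains of 1.73 ± 0.49 did not pass (adjusted p = 0.164). R+ and C+ did not differ past the threshold (0.12 ± 0.35, adjusted p = 0.877), while R- was lower than C- (-1.60 ± 0.35, adjusted p = 0.0209). All R- arrays of Fgf12 were below the filter threshold, so the sizes taken against them are uncertain. Fam155a, a partner of Nalcn, was higher in R+ (0.52 ± 0.16, adjusted p = 0.044) and in C+ (0.94 ± 0.16, adjusted p = 0.000847), whereas Unc80, another, was not past the threshold (0.76 ± 0.25 and 0.54 ± 0.25, adjusted p = 0.0618 and 0.198), except in R+ with the replicate block (adjusted p = 0.0257).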

How the data were processed

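RNA of sorted cells had been hybridized to 12 one-colour arrays after 1 round of amplification, per the labels' protocols. The deposited values are MAS5 signal intensity (named in the submitters' processing notes, which give no version or settings), rounded to whole numbers. After removal of 2% at either end the mean was 500 on every array, and array medians were 93 to 121. No detection calls were used, and 0 columns were left unmapped.

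Of 45101 probe sets, 64 controls were left out, and 34945 of the others had one gene symbol. A probe set was used if its signal exceeded 107 (the overall median) on 3 or more arrays, which 26061 did. The brightest of a gene's usable probe sets by mean log2 signal stood for it; those ending in _x_at, which can cross-hybridize, served only in the absence of others. All 71 probe sets of the listed genes matched RefSeq (GRCm38.p6) by Entrez number. Probe sets were given no coordinates, as the array files state no genome build; the upstream windows and the order of the Scn genes are those of RefSeq on GRCm38.p6.

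Log2(signal + 10) was fitted over all 12 arrays with limma 3.58.1 in R 4.3.3, with one mean per group, a trended eBayes prior, 5 two-sided contrasts and Benjamini-Hochberg adjustment over 12845 genes. This scale understates differences of dim genes, and the number of arrays limits the precision. Replicates are labelled biological, so that a p-value here reflects the variation among these arrays, part of which may be technical. On simulated data for R+ against R- (12845 genes, 5 runs with 200 changed genes), the share recovered was 8.66% for changes of 0.5 (log2), 48.7% for 1 and 82.7% for 2, and 24 of 63225 unchanged genes were called.

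To see whether replicate numbers pair the arrays, each array's deviation from its group mean was correlated with those of the other groups: r was 0.118 to 0.52 for the 18 same-numbered pairs (all over 0.1) and -0.398 to 0.273 for the other 36 (5 over 0.1). Among same-numbered pairs r was 0.334 to 0.52 for the 6 of replicate 1. It was 0.118 to 0.241 for the 12 of replicates 2 and 3, which lies within the range of the other pairs, so their pairing is less clear. The numbers were therefore taken to pair the arrays. A blocked value is given where it changed a call of a listed channel gene or moved a count of their calls by over 1.5 times. For other genes and probe sets it is given only in some cases.

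All 30 genes were accounted for. Signals per array are given for genes called in any comparison or with a mean over 450 in any group, and ranges for the others. The genes, the lists and the rules were chosen with earlier results of these data known. Alternatives were other offsets, no filter, median scaling, quantile normalization, the mean of a gene's probe sets, the block with and without the actin ratio, eBayes without trend, only the groups compared, leaving out arrays or replicate numbers, and one chosen after seeing the data, which allowed _x_at probe sets.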

Additional observations from a re-analysis of the deposited data

How the results depend on the processing

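Over the 23 called channel differences and 26 alternatives, 472 of 598 values stayed past the threshold, 126 did not, and 0 turned sign. Calls for Cacna2d1 and Scn3b in both domains and for Cacnb2 in the caudal domain held in all 26. For Cacnb2 this is no support, since it entered the test only through the groups where it was high. The count of channel genes called between R+ and R- (7) was 11 with the replicate block, 11 with the block and actin ratio, and 3 without replicate 2 or without replicate 3, and it was 6 to 8 on leaving out 1 array. That between C+ and C- (9) was 4 without replicate 2 and 3 without replicate 3, and 5 to 9 on leaving out 1 array, with 5 without C+ replicate 2, C- replicate 1 or C- replicate 3. That between R+ and C+ (3) was 1 with the mean of probe sets, 1 without the eBayes trend, 9 with the block, 0 with the block and actin ratio, and 0 without replicate 2 or 3, and it was 1 to 3 on leaving out 1 array (1 without R+ replicate 3, C+ replicate 2 or C+ replicate 3). That between R- and C- (4) was 2 without the filter, 0 with median scaling, 2 with quantile normalization, 0 with the mean of probe sets, 11 with the block, 0 with the block and actin ratio, 2 with only these groups, 2, 0 and 0 without replicates 1, 2 and 3, and 1 to 6 on leaving out 1 array (1 without R- replicate 3 or C- replicate 2, and 2 without C+ replicate 2, C+ replicate 3, C- replicate 1 or C- replicate 3). The count for the difference between domains stayed 0 in every alternative run; the one with only the groups compared does not exist for it. With the mean of probe sets Scn2a (0.11) and Cacna2d1 (0.20) turned sign between R+ and C+, where neither was called. The cause was not tested.

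Over all genes 2684, 2929, 2795, 1310 and 340 were called with the block in the 5 comparisons, against 1567, 1683, 940, 363 and 150 without it; the block with the actin ratio gave 2551, 2885, 126, 113 and 305. Median scaling gave 1336, 1496, 507, 245 and 120, and moved the share of higher calls between R- and C- to 51.8%, against 37.2%. The mean of probe sets gave 1377, 1472, 647, 252 and 120, and eBayes without trend 1466, 1561, 609, 279 and 110. Leaving out replicate 1 in all groups gave 1608, 1836, 1813, 362 and 219. Without replicate 2 the totals were 647, 810, 195, 98 and 34, and without replicate 3 they were 641, 668, 146, 79 and 27. Calls over all genes thus fell without replicate 2 or 3 as well. Between C+ and C-, leaving out C+ replicate 2, C- replicate 1 or C- replicate 3 gave 1201, 1302 and 1193. For R+ against C+, leaving out R+ replicate 3, C+ replicate 2 or C+ replicate 3 gave 391, 385 and 402. For R- against C-, leaving out R- replicate 3 or C- replicate 2 gave 198 and 238. There no filter gave 330, quantile normalization 388 and only these groups 305. The replicate block changed no other channel call than those given in the report. Signals near the threshold, such as those of Cacnb2, Scn9a and Scn1a, limit the size of their differences.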

Other observations

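The replicates left a common order in several channel genes. Replicate 1 was the highest array in all 4 groups for 5 of the 26 tested channel genes (Cacna1h, Cacna2d2, Cacnb1, Cacng2 and Cacng4), against 9.74% of 12845 genes, and replicate 2 for 3 of them (Nalcn, Scn3a and Scn9a), against 4.68%. Replicate 3 was highest in all groups for 0 of the 26, against 3.64% of all genes. The block added Scn3a, Cacna1a, Cacnb1 and Cacng4 to the calls between R+ and R-, and Cacna1d and Cacna1h to those between C+ and C-. Of these 6 genes 4 are among the 8 named here. That overlap is no separate finding, since the block takes out such a shared order.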
